A study of Mus musculus with 2 samples.

Results

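The mitochondrial ribosomal protein genes were taken as the protein-coding genes of the GENCODE M21 annotation whose symbol is Mrpl or Mrps followed by a digit. The rule found 78 of 22028 protein-coding genes, 49 named for the large subunit (Mrpl) and 29 for the small subunit (Mrps). They were measured by polyA RNA-seq in primary regulatory T cells, the Foxp3-expressing T cells that restrain immune responses, from a male adult mouse aged 9 weeks. The strain was Foxp3GFP-DTRCD4CreERT2R26tdTomato, which by its name carries alleles at Foxp3, CD4 and R26, and both libraries share all of them. The labels name no treatment and do not say how the cells were purified or whether the mouse received an inducer of the Cre. The 2 libraries are technical replicates 1 and 2 of biological replicate 1, so no conditions could be compared and every p-value covers only the counting error between these libraries.

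The mitochondrial ribosome makes the proteins that mitochondrial DNA encodes, which are core subunits of the respiratory chain and of ATP synthase. Its ribosomal RNAs come from mitochondrial DNA, while all of its proteins are encoded in the nucleus, made on cytosolic ribosomes and imported. The small subunit reads the mRNA and the large subunit joins amino acids. Many of its proteins have bacterial counterparts, and others are found only in mitochondria. T cells raise mitochondrial translation on activation, and regulatory T cells are known for their reliance on oxidative metabolism. Symbols are not a perfect guide to position: by structure the proteins of Mrps18a and Mrps30 sit in the large subunit, and the product of Mrps36 belongs to the oxoglutarate dehydrogenase complex and not to the ribosome.

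The libraries held 20890962 and 18570935 rounded counts in named genes. All 9 T cell and regulatory T cell markers of a fixed list were detected, at 86.1 TPM (Foxp3) to 2780 TPM (Trac). Of 25 markers of other cell types 8 were detected, the highest being the globin gene Hbb-bs at 73.1 TPM, and 4 were at 0, among them the neutrophil genes S100a8, S100a9 and Elane. TPM is transcript abundance scaled for transcript length and depth to a fixed total, so levels can be compared between genes on it.

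Sequences of the members come first because the difference between the libraries, described further on, went with their base composition. For 6 members the GC-richest 100 coding bases within a single exon are given in mm10 coordinates, 5′ to 3′ on the coding strand, with unbroken runs of 6 or more G or C in capitals. The first 4 windows had 80%, 80%, 78% and 75% G or C, and the last 2 had 66% and 67%.
Mrps30 (chr13:118386793-118386892, minus strand): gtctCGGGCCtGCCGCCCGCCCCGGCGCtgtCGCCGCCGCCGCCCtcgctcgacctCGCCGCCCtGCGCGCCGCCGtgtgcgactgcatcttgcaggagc
Mrps26 (chr2:130563784-130563883, plus strand): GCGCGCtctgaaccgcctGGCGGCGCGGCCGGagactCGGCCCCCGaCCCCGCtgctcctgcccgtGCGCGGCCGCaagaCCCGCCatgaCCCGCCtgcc
Mrps34 (chr17:24895284-24895383, plus strand): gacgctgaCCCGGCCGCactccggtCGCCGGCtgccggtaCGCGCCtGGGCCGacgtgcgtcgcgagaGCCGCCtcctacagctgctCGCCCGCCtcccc
Mrps22 (chr9:98601494-98601593, minus strand): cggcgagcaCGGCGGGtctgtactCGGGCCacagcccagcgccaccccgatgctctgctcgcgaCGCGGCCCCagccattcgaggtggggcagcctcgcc
Mrpl18 (chr17:12915715-12915814, minus strand): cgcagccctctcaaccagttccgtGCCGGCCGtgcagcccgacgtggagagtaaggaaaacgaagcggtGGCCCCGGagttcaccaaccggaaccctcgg
Mrpl46 (chr7:78782848-78782947, minus strand): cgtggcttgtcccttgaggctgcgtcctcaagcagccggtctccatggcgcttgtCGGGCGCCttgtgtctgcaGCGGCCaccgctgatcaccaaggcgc
The window of Mrps30 lies in coding bases 343 to 442 of Mrps30-201 and holds a run of 17 G or C, the longest of the 6. Those of Mrps26 and Mrps22 begin at coding bases 6 and 52.

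Every member was expressed. All 78 had at least 1 TPM in both libraries, beside 47.5% of all protein-coding genes (10472 of 22028). The median member had a mean TPM of 67.1, with quartiles of 43.5 and 97.9, against a median of 25.5 over detected protein-coding genes. The members ran from 2.73 TPM for Mrps30 to 224 TPM for Mrpl52, and 76 of them reached 10 TPM, 52 reached 50 TPM and 19 reached 100 TPM. Together they took 0.345% of the counts of library 1 (95% exact binomial interval 0.342% to 0.347%) and 0.323% of library 2 (0.321% to 0.326%). In bulk RNA, fewer cells of a type and less RNA per cell cannot be told apart.

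Large subunit members had a median mean TPM of 68.6 and small subunit members 57.5. The large subunit median was 70.8 TPM in library 1 and 66.3 TPM in library 2, and that of the small subunit was 50.6 and 72.3 TPM. The order of the subunits thus turned between the libraries, and no difference in level between them held beyond the technical spread. The quartiles were 48.8 and 112 TPM for the large and 38.8 and 92.5 TPM for the small subunit. The standard deviation over members of log2(mean TPM + 1) was 0.93 in the large and 1.13 in the small subunit by name. With Mrps18a and Mrps30 placed in the large subunit and Mrps36 left out, these were 1.08 over 51 genes and 0.87 over 26 genes, so the order of the spreads rests on where these genes are counted. The 46 members with a bacterial counterpart under the uniform ribosomal protein names had a median of 72.0 TPM. The 31 that these names mark as mitochondrial had 55.2 TPM, over ranges that overlapped widely. The names decide the class, so the 31 include Mrps18a and Mrps18b, which are paralogues of bacterial S18. The 77 cytosolic ribosomal protein genes stood far above at a median of 835 TPM. A set of 94 nuclear genes of the respiratory chain and ATP synthase, of which 86 were detected, had 195 TPM. This set was picked by the start of the symbol, so not every gene in it need encode a subunit.

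**Figure D1:**
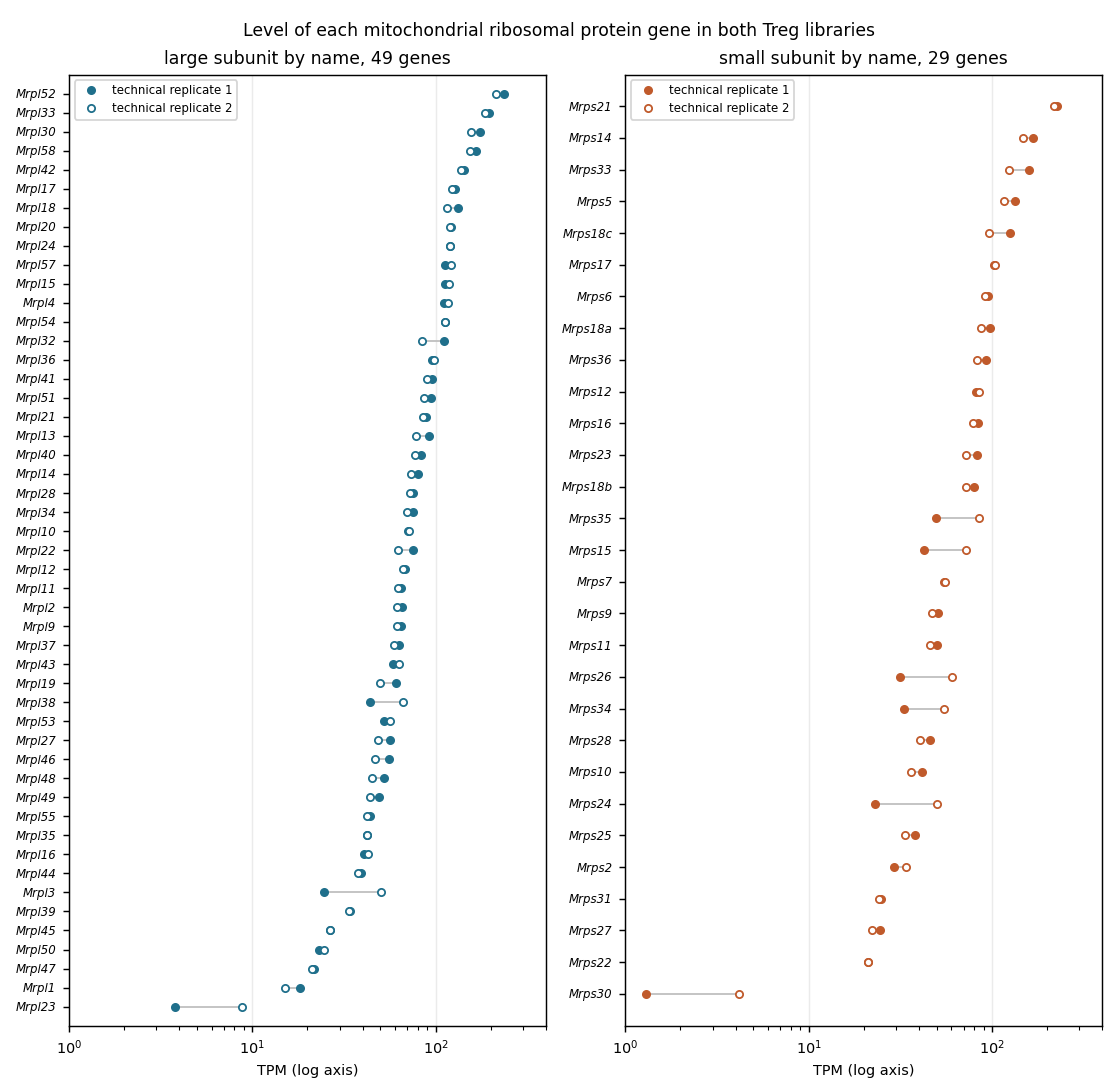
TPM of each member on a log axis, large subunit left and small subunit right, with filled points for technical replicate 1 and open points for technical replicate 2, sorted by the mean. Most pairs of points touch, while Mrps30, Mrpl23, Mrpl3, Mrps24, Mrps26 and Mrps35 show wide gaps with library 2 on the right.

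**Figure D2:**
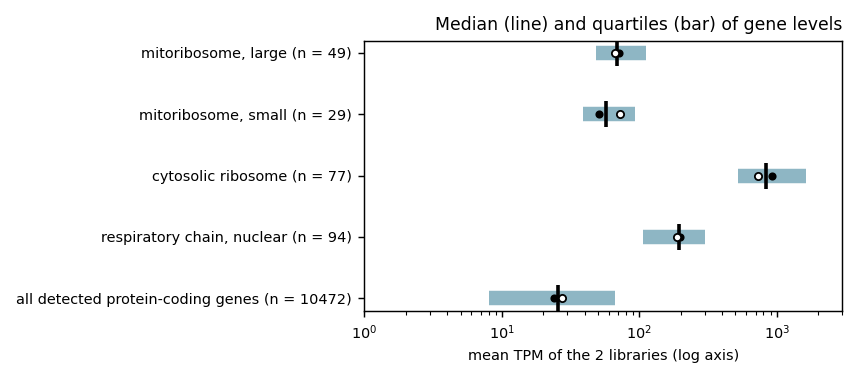
Mean TPM on a log axis for large and small subunit genes, cytosolic ribosomal proteins, nuclear respiratory chain genes picked by symbol and all detected protein-coding genes. Lines are medians, bars run from the lower to the upper quartile, and filled and open points are the medians in technical replicates 1 and 2. The mitoribosomal medians of 68.6 and 57.5 lie between 25.5 for all detected genes and 835 for the cytosolic ribosome.

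The most abundant members came from both subunits. Mrpl52, a large subunit protein without a bacterial counterpart, had 235 and 213 TPM from 1277 and 995 expected counts. Mrps21, the counterpart of bacterial S21, had 227 and 218 TPM. Mrpl33, the counterpart of bacterial L33, had 196 and 185 TPM. These 3 lay above all other members in both libraries. Mrpl30 followed at 174 and 155 TPM, then Mrpl58 at 166 and 154 TPM and Mrps14, of the small subunit head, at 167 and 147 TPM. Mrpl58 encodes a peptidyl-tRNA hydrolase that became a structural part of the large subunit. Among these neighbours in rank the libraries overlapped, so their order is not resolved. The 10 highest also held Mrps33 at 159 and 124 TPM, Mrpl42 at 142 and 137 TPM, Mrpl17 at 128 and 123 TPM and Mrps5 at 134 and 116 TPM. Across the 78 members, TPM had a Spearman rho of 0.95 between libraries, and mean TPM had a rho of -0.70 with transcript length. TPM divides by length, so the last value shares a term with its x axis.

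The least abundant member was Mrps30, at 1.29 and 4.16 TPM from 60.99 and 164.5 expected counts. At these depths 3 counts correspond to 0.0635 and 0.0759 TPM of Mrps30, so it was well above the counting floor. Mrpl23 was next at 3.79 and 8.74 TPM, and its level rests on reads shared with a pseudogene, given below. Mrpl1, a protein of the stalk that guides the leaving tRNA, had 18.3 and 15.1 TPM. Mrps22 had 21.2 and 21.1 TPM and Mrpl47, the counterpart of bacterial L29, 21.7 and 21.3 TPM. The 10 lowest were completed by Mrps27 at 24.5 and 22.1 TPM, Mrpl50 at 23.01 and 24.7 TPM, Mrps31 at 24.8 and 24.1 TPM, Mrpl45 at 26.5 and 26.7 TPM and Mrps2 at 29.3 and 34.0 TPM. Mrpl45 anchors the ribosome at the inner membrane beside the exit tunnel. Apart from Mrps30 and Mrpl23, the members thus lay between 16.7 and 224 mean TPM.

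The levels of members placed at known sites of the ribosome were as follows, for sites chosen by hand. By the peptidyl transferase centre and the upper tunnel, Mrpl2 had 65.7 and 61.3 TPM, Mrpl4 had 111 and 116 TPM and Mrpl3 had 24.7 and 50.1 TPM. In the factor-binding stalk and its base, Mrpl10 had 70.8 and 71.8 TPM, Mrpl11 had 64.6 and 62.4 TPM and Mrpl12 had 68.3 and 66.1 TPM. These 3 stalk genes lay within a narrow range in both libraries. In the central protuberance, Mrpl18 had 132 and 116 TPM, Mrpl40 had 83.5 and 77.3 TPM, Mrpl46 had 55.8 and 46.4 TPM and Mrpl48 had 52.5 and 45.0 TPM. At the tunnel exit, Mrpl22 had 75.04 and 62.2 TPM and Mrpl24 had 119 TPM in both libraries. In the decoding region of the small subunit, Mrps12 had 81.6 and 84.9 TPM. The 3 paralogues of bacterial S18 go to different places: Mrps18a had 97.8 and 87.3 TPM, Mrps18b had 79.98 and 72.3 TPM and Mrps18c had 126 and 95.8 TPM. Mrps36, of the oxoglutarate dehydrogenase complex, had 93.3 and 82.9 TPM.

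Mrpl23, which encodes an exit tunnel protein (chromosome 7, 142532686 to 142540747, plus strand, mm10), shares its coding sequence with a copy. Its processed pseudogene Mrpl23-ps1 lies on chromosome 2 at 74591330 to 74591909, minus strand. All 441 coding bases of the transcript Mrpl23-201 are equal in the pseudogene, and 491 of 643 windows of 50 bases of that transcript are found in it. For Mrpl23-207 all 306 aligned coding bases are equal, with 458 of 541 windows. For Mrpl23-206 the values are 431 of 458 aligned coding bases and 458 of 687 windows. Mrpl23-206 held the whole coding share of Mrpl23 in library 1 (56.9% of its TPM). The deposited tables gave Mrpl23 95.5 and 164 expected counts and the pseudogene 1356 and 1005. Mrpl23 thus held 6.58% of the joint counts in library 1 and 14.05% in library 2. Jointly the loci had 185 and 167 TPM, a mean exceeded by only 3 other members, whereas Mrpl23 alone ranked 77 of 78. Mrpl23-205, a retained intron of 3715 bases with the highest mean percent of Mrpl23, shares only 3.00% of its windows with the pseudogene. Part of the annotated gene is thus distinct. Which locus the shared reads came from was not tested. The first 120 coding bases, shared by both loci, are printed from the annotation's transcripts with the start codon in capitals, and lie at chr2:74591773-74591892 on the minus strand in the pseudogene.
Mrpl23 and Mrpl23-ps1: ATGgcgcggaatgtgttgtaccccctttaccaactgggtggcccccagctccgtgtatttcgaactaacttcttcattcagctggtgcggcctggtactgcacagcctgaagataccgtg

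Some other members also shared sequence with other genes. In 45 of the 78 leading transcripts no window of 50 bases occurred in a transcript of another gene. Every window of Mrpl53-201 also occurs in Gm42688, a same-strand protein-coding gene with 160 and 317 expected counts, beside 484 and 440 for Mrpl53. Of Mrps33, 23.9% of windows occur in the processed pseudogene Gm5776, which had 176 and 168 counts beside 1175 and 734 for Mrps33. For Mrps5 the share was 51.3%, but its copy Gm13328 had 0 and 5.23 counts. The pseudogenes named for Mrps36 and Mrpl48 had at most 4.19 counts each. Exons of 28 members overlap a gene on the opposite strand, and no source used here says whether the counting used strand. Values of Mrps25, which shares 4590 exonic bases with Nr2c2, of Mrpl19 (1962 with Gcfc2) and of Mrps34 (1309 with Mapk8ip3) are therefore uncertain. Exons of 8 members overlap a gene on the same strand, where strand cannot separate the reads. Mrps34 shares 763 such bases with Nme3 (518 and 409 counts), and Mrps24 shares 226 with Urgcp (1420 and 1649 counts). The leading transcripts of Mrps34 and Mrps24 shared no window of 50 bases with another gene.

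The transcript estimates placed part of the members' RNA outside protein-coding transcripts. The median member had 81.2% of its TPM in protein-coding transcripts. By counts the median was 86.7%, beside 93.6% for detected protein-coding genes. The leading transcript, the one with the highest mean percent of its gene's TPM, was annotated as protein coding for 57 of 78 members (73.1%), beside 86.2% of 10472 detected protein-coding genes. The share was 37 of 49 in the large and 20 of 29 in the small subunit. Of the other 21, 8 led with a transcript annotated for nonsense-mediated decay, 7 with a processed transcript and 6 with a retained intron. Percent of TPM favours short transcripts. By counts, 63 members (80.8%) led with a protein-coding transcript, beside 90.8% of detected genes.

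These leading transcripts were mostly short and carried much of the coding sequence. In 20 of the 21 members the lead was shorter than the gene's transcript with the longest coding sequence, with medians of 707 and 3364 bases. The lead held a median of 85.7% of that coding sequence, and in 5 members it held all of it. Mrpl57-202, a retained intron of 519 bases, took 97.99% and 96.9% of Mrpl57 and holds all 309 coding bases. Mrps14-201, annotated for nonsense-mediated decay at 674 bases, took 94.5% and 93.6% of Mrps14 and holds all 387 coding bases. Mrps26-201, a retained intron of 1057 bases, took 97.1% and 97.7% of Mrps26, against 2.86% and 2.28% for the coding Mrps26-202 of 4278 bases. Mrps24-201 took 96.6% and 91.6% of Mrps24, and Mrps11-205 took 73.2% and 81.2% of Mrps11, and both hold the whole coding sequence. Mrpl32-201 took 84.2% and 86.0% of Mrpl32 and holds 545 of its 564 coding bases. An annotation of this kind is a label of the transcript model, and the RNA behind it was not tested.

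The remaining non-coding leads varied in the share they took. Mrps16-202 took 97.9% and 98.0% of Mrps16. The leads of Mrpl13 (70.7% and 70.7%), Mrpl3 (68.7% and 69.4%), Mrpl35 (78.95% and 81.1%) and Mrpl47 (76.8% and 78.3%) each took over 60% in both libraries. Those of Mrpl15, Mrpl19, Mrpl20, Mrpl48, Mrpl51, Mrps18c, Mrps25 and Mrps35 took 43.0% to 73.8%. The transcript with the highest percent in a library differed between libraries in 4 members. Mrpl1-202 took 42.9% and 58.6% of Mrpl1, Mrpl55-205 took 36.97% and 51.3% of Mrpl55 and Mrps5-206 took 33.3% and 29.8% of Mrps5. Mrpl23-205 took 36.9% and 32.2% of Mrpl23, the highest mean, but led in neither library. Mrpl23-206 led in library 1 and took 56.9% and 6.08%, and Mrpl23-207 led in library 2. Of members with a coding lead in both libraries, those of Mrpl24 (34.9% and 28.4%), Mrpl38 (44.1% and 39.8%) and Mrpl58 (47.4% and 41.0%) took under 50%.

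**Figure D3:**
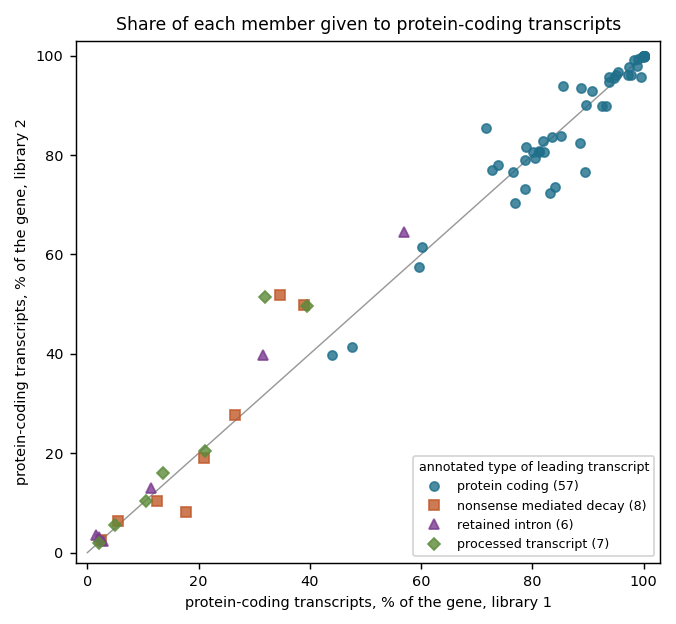
Percent of each member's TPM given to protein-coding transcripts in technical replicate 1 (x axis) against technical replicate 2 (y axis), 78 genes, with symbols for the annotated type of the leading transcript. Most of the 57 genes with a coding lead lie in the upper right and most of the 21 others at the lower left. Mrpl38 and Mrpl58, with coding leads, lie under 50% in both libraries, and Mrpl23, with a non-coding lead, lies above it.

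The members' neighbourhoods were compact. Within 1000 bases, 18 of 78 members (23.1%) had a protein-coding gene starting upstream on the opposite strand, beside 11.5% of detected and 6.77% of all protein-coding genes. The share was 12 of 49 in the large and 6 of 29 in the small subunit. The levels across such pairs could differ greatly. Mrpl10 had 70.8 and 71.8 TPM while Lrrc46, whose start lies 153 bases away, had 0 and 0.06 TPM. Mrpl57 had 113 and 121 TPM and Ska3, 49 bases away, 1.11 and 1.32 TPM. In the opposite sense, Fau, which encodes a cytosolic ribosomal protein, had 943 and 794 TPM, 59 bases from Mrpl49 at 49.4 and 43.9 TPM. Mrpl46 and Mrps11, a large and a small subunit gene on opposite strands, share 173 exonic bases at their starts and had 55.8 and 46.4 TPM and 49.9 and 45.9 TPM.

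Promoters were read for 69 of the 78 members from RefSeq sequences on GRCm38.p6, each with 250 bases before and 50 after the start. For members the promoter nearest the start of the leading transcript was taken, and for the comparison sets the first one listed for each gene. The shares set beside each other below are therefore not picked alike. Motif cores of 3 factors known for nuclear genes of mitochondria were searched on both strands: NRF1 as GCGCATG, ETS factors such as GABP as CCGGAAG, and YY1 as AAGATGG. The end of the ETS letters equals the start of the YY1 letters, so matches of these can overlap. These short cores replaced longer forms of the NRF1 and YY1 letters after the data had been seen. At least 1 motif was found in 38 of 69 members (55.1%), beside 32.9% of 8325 detected protein-coding genes and 17.9% of all 27025 genes of the table. ETS letters were in 26 members (37.7%, beside 21.2% of detected genes), YY1 letters in 13 (18.8%, beside 8.04%) and NRF1 letters in 8 (11.6%, beside 7.90%). For comparison, the more general promoter letters GGGCGG (SP1) were in 33 members (47.8%, beside 65.4% of detected genes) and CCAAT in 27 (39.1%, beside 39.8%). The median promoter GC of 58% lay below the 60.7% of detected genes. A match describes the letters and is no evidence of binding. The promoters of Mrpl52, the most abundant member, and of Mrps27, among the 10 lowest, are shown because both hold ETS and YY1 letters, in capitals, at very different levels of RNA.
Mrpl52 (chr14:54426659-54426958, plus strand): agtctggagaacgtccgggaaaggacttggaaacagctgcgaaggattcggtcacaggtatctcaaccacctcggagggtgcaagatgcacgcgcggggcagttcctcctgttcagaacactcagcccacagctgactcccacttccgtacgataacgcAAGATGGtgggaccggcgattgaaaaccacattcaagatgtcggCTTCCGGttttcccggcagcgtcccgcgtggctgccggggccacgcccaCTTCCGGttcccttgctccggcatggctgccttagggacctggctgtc
Mrps27 (chr13:99344536-99344835, plus strand): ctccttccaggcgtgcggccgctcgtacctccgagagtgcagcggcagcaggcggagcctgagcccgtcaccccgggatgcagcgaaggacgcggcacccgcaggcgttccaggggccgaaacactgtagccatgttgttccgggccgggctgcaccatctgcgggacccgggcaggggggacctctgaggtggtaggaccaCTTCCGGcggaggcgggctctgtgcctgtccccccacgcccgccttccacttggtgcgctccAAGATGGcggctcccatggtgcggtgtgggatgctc
With the same pair of motifs, Mrpl52 had 235 and 213 TPM and Mrps27 had 24.5 and 22.1 TPM. The start of Mrps27 lies 81 bases from that of Ptcd2, which had 61.4 and 55.1 TPM.

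Between the technical replicate libraries 10 members were higher in library 2, 13 were lower and 55 did not pass the test. The test was an exact binomial test of each gene's rounded expected counts with Benjamini-Hochberg adjustment at 0.05 over 16553 genes, of which 21.6% were called higher and 13.0% lower. Among the 7287 genes whose total counts lay in the members' range of 225 to 3930, 30.7% were higher and 14.2% lower. The members' shares were 12.8% and 16.7%. The median log2 ratio of library 2 over library 1 was -0.07 over members and 0.02 over all genes tested. The large subunit held 3 higher and 7 lower of 49, and the small subunit 7 higher and 6 lower of 29. Placed by structure these were 4 and 7 of 51, and 6 and 5 of 26. With a trend on whole-transcript GC removed the split was 10 higher and 33 lower, and with total counts as library sizes it was 10 and 25.

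The 10 members that rose had log2 ratios of 0.24 to 1.65, and the 13 that fell had log2 ratios of -0.44 to -0.15. Mrps30 rose from 1.29 to 4.16 TPM, a log2 ratio of 1.65 with a counting SE of 0.22 (exact binomial test, adjusted p = 3.88e-15). Mrps24, the counterpart of bacterial S3, rose from 22.99 to 50.2 TPM (log2 ratio 1.12). Mrpl3, the counterpart of bacterial L3, rose from 24.7 to 50.1 TPM (log2 ratio 1.07, SE 0.08). Mrpl23 rose by a log2 ratio of 1.00, while its counts joined with those of the pseudogene had a log2 ratio of -0.08 with a counting SE of 0.06. The rise did not appear in the joint counts. Mrps26 rose from 31.5 to 60.4 TPM (0.91), Mrps15 from 42.4 to 72.6 TPM (0.86), Mrps35 from 49.2 to 84.6 TPM (0.78) and Mrps34 from 32.95 to 54.8 TPM (0.68). Mrpl38 rose by 0.54 and Mrps2 by 0.24 on the log2 scale.

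Of the lower members, Mrps33 fell from 159 to 124 TPM (log2 ratio -0.44, exact binomial test, adjusted p = 3.50e-10). Mrpl32, whose product is matured by a mitochondrial protease before assembly, fell from 112 to 84.8 TPM (log2 ratio -0.44, exact binomial test, adjusted p = 3.50e-11). Mrps18c fell from 126 to 95.8 TPM (-0.35), Mrpl18 from 132 to 116 TPM (-0.29) and Mrpl22 from 75.04 to 62.2 TPM (-0.27). The other 8, with smaller falls, were Mrpl46, Mrpl13, Mrps14, Mrps36, Mrps18b, Mrpl30, Mrps5 and Mrpl58. Of all 78 members 59 had a ratio under 0 and 19 over 0. Of the S18 paralogues, Mrps18c and Mrps18b (-0.19) fell and Mrps18a had -0.11 without passing the test, and the difference between them was not tested.

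The rises went with local base composition. For each gene the G and C share of the GC-richest 100 bases of its transcripts was averaged over transcripts by counts. Of 12 members at 75% or more, 8 were higher in library 2 and none was lower, with a median log2 ratio of 0.77. Of the 66 members under 75%, 2 were higher and 13 lower, with a median of -0.09. The 2 were Mrpl38 at 73.7% and Mrps35 at 70.5%. Of the 12, Mrpl54 at 78% (112 and 112 TPM), Mrps7 at 78.9% (55.0 and 55.6 TPM), Mrpl10 and Mrps22, both at 75%, did not pass the test. Protein-coding genes in the members' count range showed the same steps: 8.83% were higher and 17.8% lower from 65% to 70%, and 69.6% and 3.43% from 75% to 80%. Over the members the ratio had a Spearman rho of 0.55 with local GC and 0.19 with whole-transcript GC, a description over 78 genes that share both libraries. Small subunit members held 8 of their 29 genes at 75% or more and large subunit members 4 of 49. With a trend on local GC removed, an alternative chosen after the data were seen, 10 members were higher and 15 lower. Of the earlier calls, 9 of the 10 remained higher and 7 of the 13 remained lower. Mrps2 lost its call at a log2 ratio of 0.04 (exact binomial test, adjusted p = 0.74). Members newly called lower included Mrps7 (log2 ratio -0.48), Mrpl54 (-0.42) and Mrpl10 (-0.18), and Mrpl57 (0.18) was newly called higher. Mrps30 then had a log2 ratio of 1.21. The part of local GC in the differences was not tested further.

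**Figure D4:**
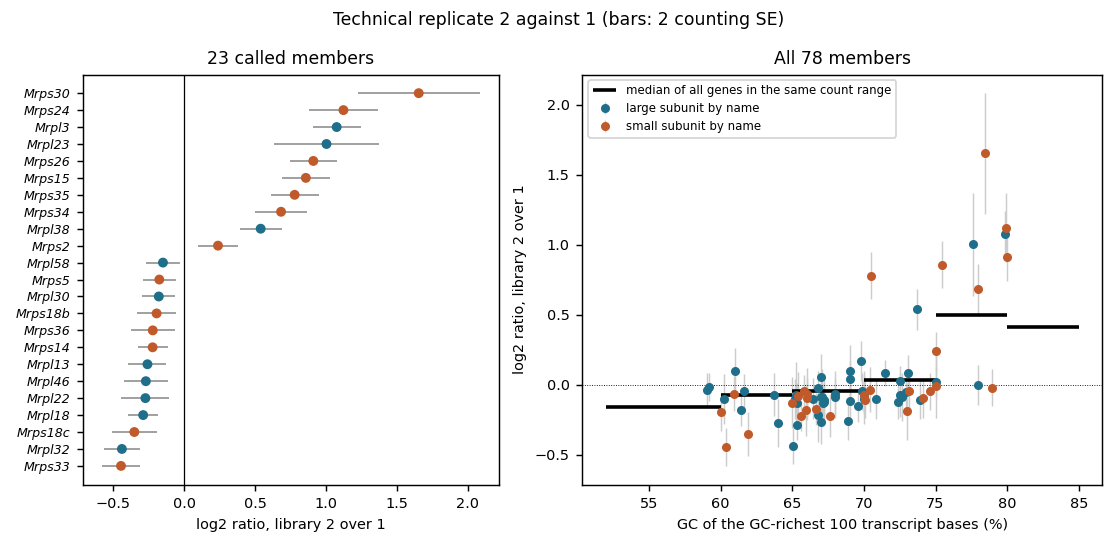
Log2 ratio of technical replicate 2 over 1 for the 23 members that passed the test (left) and for all 78 members against the G and C share of the GC-richest 100 transcript bases (right), blue for large and orange for small subunit by name, with bars of 2 counting SE. Black steps are medians of all protein-coding genes in the same count range. Most members under 70% lie near or below 0, and 8 of the 12 members at 75% or more were called higher in library 2.

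In the lists of genes that act with the mitoribosome, proteins of the ribosome itself had the highest median. The 5 mitoribosomal proteins with other names had a median of 108 TPM: Aurkaip1 had 170 and 170 TPM, Dap3, the GTP-binding protein of the small subunit, 140 and 141 TPM, Chchd1 117 and 98.0 TPM, Ptcd3 77.3 and 67.3 TPM and Gadd45gip1 16.7 and 29.2 TPM. Gadd45gip1 was higher in library 2 and Chchd1 lower. All 11 matched translation factors passed detection, with a median of 35.4 TPM, led by the elongation factor Tufm at 115 and 118 TPM, then the initiation factor Mtif2 at 50.98 and 39.9 TPM, the elongation factor Gfm1 at 44.9 and 41.4 TPM and Tsfm, the exchange factor of Tufm, at 40.8 and 41.2 TPM. None was higher and only Mtif2 was lower. Over all genes tested, 21.6% were higher and 13.0% lower.

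All 23 assembly and rRNA modification genes passed detection, around a median of 23.1 TPM, and 7 were higher and 6 lower. These counts, and those of the next lists, stand beside 21.6% higher and 13.0% lower over all genes tested. Dhx30, an RNA helicase, had 109 and 116 TPM, Mterf3 had 90.2 and 70.9 TPM, Ngrn had 51.0 and 54.7 TPM and Mtg2, a GTPase, had 45.8 and 45.98 TPM. The largest rise was that of Mpv17l2, from 7.77 to 19.98 TPM (log2 ratio 1.26). The 19 genes for mitochondrial aminoacyl-tRNA synthetases all passed detection, around a median of 18.2 TPM, and 7 were higher and 3 lower. Lars2, for leucine, stood apart at 567 and 465 TPM from 29592 and 20591 counts, and was called lower (log2 ratio -0.29). Sequence shared with other genes was searched for the members only and not for this list. Kars had 101 and 100.3 TPM, Tars2 71.5 and 81.9 TPM and Rars2 48.9 and 44.7 TPM, and Gars rose most, from 12.3 to 27.4 TPM (1.14). Of the 10 genes of mitochondrial transcription and mRNA handling, 3 were higher and 2 lower, with Tfam, which packages mitochondrial DNA, at 111 and 91.7 TPM, Slirp at 79.3 and 61.5 TPM, Polrmt, the mitochondrial RNA polymerase, at 28.7 and 51.4 TPM and Pnpt1 at 35.9 and 36.9 TPM.

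Among 11 regulators of nuclear genes for mitochondria, 10 were detected, 5 were higher and none was lower, beside 21.6% and 13.0% of all genes tested. With the local GC trend removed 1 was higher. Myc had 170 and 185 TPM, Nrf1 had 76.4 and 78.7 TPM, Gabpb1 had 46.5 and 61.5 TPM and Pprc1, of the PGC-1 family, had 35.8 and 65.7 TPM. Ppargc1a, which encodes PGC-1 alpha, had 1 and 5 counts (0.03 and 0.2 TPM) and was the one gene of these lists under the detection threshold. The ribosomal RNAs of the mitochondrion, which carry only short tails and are poorly measured after polyA selection, were lower in library 2: mt-Rnr1 had 1080 and 737 TPM and mt-Rnr2 had 4891 and 3261 TPM. For scale, 72 of the 77 cytosolic ribosomal protein genes (93.5%) were lower and 2 (2.60%) higher in library 2, in a group of far higher levels. The median log2 ratio was -0.23 over that group and -0.07 over the members, and this difference was not tested.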

How the data were processed

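Each library had a gene and a transcript table on mm10 with GENCODE M21 and an older gene table on GENCODE M4, per the deposited text descriptions. The authors deposited expected counts (estimated reads, shared reads divided), TPM and FPKM (both scaled for length and depth), a posterior mean TPM signal and each transcript's percent of its gene, per the file headers. The older tables held whole-number counts deposited by the authors, with totals of 6047614 and 5889818. For the aligner, quantifier, versions and strand setting: not given in the sources used here.

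Rows that named no gene held 0.307% and 0.242% of expected counts and entered neither library sizes nor tests. The members, lists, tests and alternatives were chosen with earlier results of these data known. Counts were rounded and library sizes scaled by TMM (edgeR 4.0.16, R 4.3.3). Genes with at least 10 counts over both libraries, among them all 78 members, were compared with a two-sided exact binomial test (scipy 1.17.1) and Benjamini-Hochberg adjustment over all of them. A quasi-likelihood fit in edgeR was impossible, since 2 libraries leave no residual degrees of freedom. Log2 ratios have 0.5 added to each count, and SEs, intervals and floors reflect counting error alone, because without molecular identifiers PCR copies of a molecule count repeatedly. The labels do not say whether the libraries came from the same RNA. The test was tried first on simulated counts that held only counting error and set fold changes. That trial therefore says nothing about other differences between the libraries. Members named in full were the 10 highest and 10 lowest in mean TPM, the 5 with the largest ratios each way, the S18 paralogues, those placed elsewhere than their symbol says, and those with a leading transcript that is non-coding, under 50% or different between libraries. From other lists the 4 highest by mean TPM, or all of a list of under 6, and called genes with large ratios were named. Of 82 list names 3 matched no gene. Further settings are given in the closing section.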

Additional observations from a re-analysis of the deposited data

How the results depend on the processing

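The count of 10 higher members ranged from 8 to 11 over 10 alternatives. The count of 13 lower members was 25 with total counts as library sizes, 33 with a GC trend removed and 4 in the older counts, where 77 members were present. It was 0 at a minimum of 1.5-fold, and 0 with edgeR's exactTest at an assumed dispersion of 0.01, against 2 at an unadjusted p under 0.05 there and 17 by the exact binomial test. No call turned direction. The count of lower genes in the other lists was 13, against 8 in the older counts. The large subunit median of 68.6 was 61.75 by posterior mean TPM and 45.3 by FPKM, and the small subunit median of 57.5 was 37.6 by FPKM. Spreads placed by structure were 1.08 and 0.87. Leaving out each library in turn gave medians of 66.3 to 70.8 (large) and 50.6 to 72.3 (small), spreads of 0.89 to 1.00 and 1.05 to 1.27, 78 members detected and 58 to 59 coding leads. Mrps36 had a log2 ratio of 0.57 in the older counts (exact binomial test, adjusted p = 0.49), against -0.22. The causes were not tested. With 2 technical libraries, sampling depth bounds only counting error. No paired analysis was possible because the study has a single group.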
